A study of Danio rerio with 8 samples.

Results

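The genes described here encode high mobility group (HMG) proteins of chromatin: hmga1a, the gene whose overexpression was induced, 6 HMGB genes (hmgb1a, hmgb1b, hmgb2a, hmgb2b, hmgb3a and hmgb3b) and 3 HMGN genes (hmgn2, hmgn3 and hmgn6). They were chosen by symbol, and all 10 were found among the 21234 genes of the count table. RNA was measured in adult zebrafish heart cells from dissociated ventricles, which the labels name cardiomyocytes. All fish carried cmlc2:dsred, a reporter in which a cardiac myosin light chain promoter drives a red fluorescent protein. The 4 control libraries carry the second genotype control and the other 4 the second genotype Hmga1a overexpression, and every library of both groups was taken 14 days post tamoxifen. The sources used here do not name the promoter that drives Hmga1a or the recombinase, the strain, the way cells were selected or the number of fish behind a library. Since separate fish are not stated, p-values measure only how these libraries vary, which may in part be technical.

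HMG proteins are abundant, small proteins that bind DNA or nucleosomes with little preference for a particular sequence and change how chromatin folds. HMGA proteins hold the minor groove of AT-rich DNA through AT-hooks, HMGB proteins bend DNA through HMG boxes, and HMGN proteins bind the nucleosome itself and, in mammals, compete with linker histone H1. In mammals the HMGA genes are active mainly in embryonic and growing cells, and HMGB1 released from damaged cells is a signal for inflammation.

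Across libraries, totals ran from 49598 to 352807 counts in controls and from 302157 to 572295 with overexpression, and control 2 was the smallest. The 10 genes together gave 144.7, 11.0, 61.1 and 85.2 counts in control libraries 1 to 4 and 235.6, 251.7, 181.8 and 343.4 counts with overexpression, so every level here rests on few molecules. Mitochondrial transcripts took 44.9% to 67.7% of the counts in controls and 28.1% to 35.1% with overexpression. With these transcripts left out, 746 genes were higher and 763 lower of 2517 tested (edgeR, adjusted p under 0.05). Of the 5 HMG genes tested there, 2 were higher and 0 lower: hmgb3b (log2 fold change 1.42) and hmgn3 (1.21). Any other part of the mitochondrial difference in the results was not tested. The cell type label was checked with marker lists. Of 14 tested cardiomyocyte markers 11 rose and 3 fell with overexpression, and their summed level was 19322 to 26942 CPM in controls and 45137 to 51162 CPM with overexpression (CPM, counts relative to a library total that TMM makes comparable). None of the 16 in the table was at 0 in every library, but myl7, the gene also known as cmlc2 whose promoter drives the reporter, had 1 count over all 8 libraries, in a control. All 5 tested endothelial, all 6 leukocyte and both tested fibroblast markers fell (adjusted p under 0.05, edgeR). Of the endothelial markers 3 fell without control 1 and with spike-in scaling. Summed levels went from 392.2 to 571.9 CPM in controls to 102.03 to 171.9 CPM for 12 endothelial markers. They went from 3952 to 7851 CPM to 1617 to 2122 CPM for 13 leukocyte markers and from 824.1 to 1673 CPM to 159.0 to 222.5 CPM for 9 fibroblast markers. The endothelial markers cdh5 and nrp1b, the leukocyte markers coro1a and mfap4 and the fibroblast marker col6a1 were at 0 in every library. Of 4 tested epicardial markers 1 rose and 3 fell (3651 to 4334 CPM summed over 8 markers in controls and 3265 to 3546 CPM with overexpression, tbx18 at 0). None of 9 erythrocyte and thrombocyte markers was tested (0 to 80.9 and 4.98 to 23.7 CPM, 7 of them at 0). These shifts accompany every comparison below, and their part in the results was not tested. In bulk RNA, fewer cells of a type and less RNA per cell cannot be told apart.

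Of the 10 genes, 5 had enough counts to be tested. Of these 2, hmgb3b and hmgn3, passed as higher with overexpression, none passed as lower, and hmga1a, hmgn2 and hmgb2b stayed short of the threshold (edgeR's quasi-likelihood test, Benjamini-Hochberg adjusted p under 0.05 over the 2501 genes tested). Across all tested genes 30.4% passed as higher, 29.2% as lower and 59.6% in either direction, so 2 of 5 is close to the background. A gene entered the test if it reached a set level in as many libraries as 1 group holds. hmgn3 reached it in no control and hmgb3b not in every control, so both entered through the overexpression group. The numbers of higher and lower members thus depend on the filter. With no filter on low counts, 2 of 8 members tested were higher and 0 lower, beside 929 and 1030 of 13443 genes. Without control 1 hmgb3b and hmgn3 both lost their calls. Of 6 members then tested 1 passed, hmga1a, as higher, beside 629 of 2670 genes. Every overexpression library lay above every control for 1 of the 5, beside 25.7% of all tested genes, and below every control for 0, beside 17.6%. The median log2 fold change of the 5 was 0.48, and that of all tested genes 0.01. The call depends on what the libraries are scaled to. Of all genes called, 51.0% were higher after TMM, 66.8% when only library totals were used, 64.2% with scaling on spike-in RNAs and 2.54% with scaling on the cardiomyocyte markers. The last of these moved the median of all genes to -1.38 on the log2 scale, library totals to 0.38 and spike-ins to 0.31.

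hmga1a, the AT-hook gene targeted in this experiment, was at 127.4, 30.2, 75.01 and 58.9 CPM in controls 1 to 4. With overexpression it was at 80.7, 132.8, 128.6 and 130.6 CPM in libraries 1 to 4. The groups overlapped: control 1 lay above overexpression 1 and just below the other 3 overexpression libraries, which were close to each other. Whether transcripts of the transgene are counted under hmga1a is not stated. The log2 fold change was 0.47 ± 0.30 (SE; 95% interval -0.14 to 1.07) and did not pass (adjusted p = 0.177, edgeR's quasi-likelihood test). The spread between controls was larger than counting alone gives: the variance was 3.45 times that of counting in controls and 2.29 times with overexpression. Control 1, with 45 counts, has an exact Poisson 95% interval of 92.9 to 170.5 CPM, and control 2, with 1 count, one of 0.76 to 168.1 CPM (counting error only). Without control 1 the log2 fold change was 0.85 and passed (adjusted p = 0.0444, edgeR), and it passed with library totals alone (0.80, 0.0486). Without any other single library it did not pass (adjusted p from 0.0647 to 0.558, edgeR). It then ran from 0.24 (without control 4) to 0.66 (without overexpression 1). When libraries were scaled on the cardiomyocyte markers hmga1a passed as lower (-0.95, adjusted p = 0.0303, edgeR), where 65.9% of all genes did. In the authors' deposited table, made from 6 libraries, hmga1a has a log2 fold change of 0.84 with an adjusted p of 0.0227. Refitted on those 6 libraries as above, it was at 0.58 and short of the threshold (adjusted p = 0.0852, edgeR).

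hmga1b, the other zebrafish hmga1 gene and not one of the 10, was too low to be tested. It had 5.0, 1, 4.0 and 6.0 counts in control libraries 1 to 4 and 5.0, 18.04, 14.0 and 10.01 counts with overexpression. In CPM its means were 22.0 ± 6.55 in controls and 25.3 ± 14.0 with overexpression (SD, n = 4), and the groups overlapped. hmga1a made up 90.04%, 50%, 77.8% and 72.8% of the counts of the pair in controls and 87.2%, 81.6%, 75.1% and 88.7% with overexpression. The difference of 10.5 percentage points was within the variation among libraries (p = 0.314, by exact permutation test over 70 assignments, two-sided, n = 4 per group). Without control 2, which had 1 count of each copy, the difference was 2.94 points (p = 0.629, exact permutation test). Without any other single library it was 8.63 to 16.3 points. This share does not depend on how libraries are scaled, and the comparison was added after the data were seen. The authors' deposited table gives hmga1b a log2 fold change of 0.90 with an adjusted p of 0.266. The sources used here do not say how reads shared by both copies were counted, so the split between them is uncertain.

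**Figure D1:**
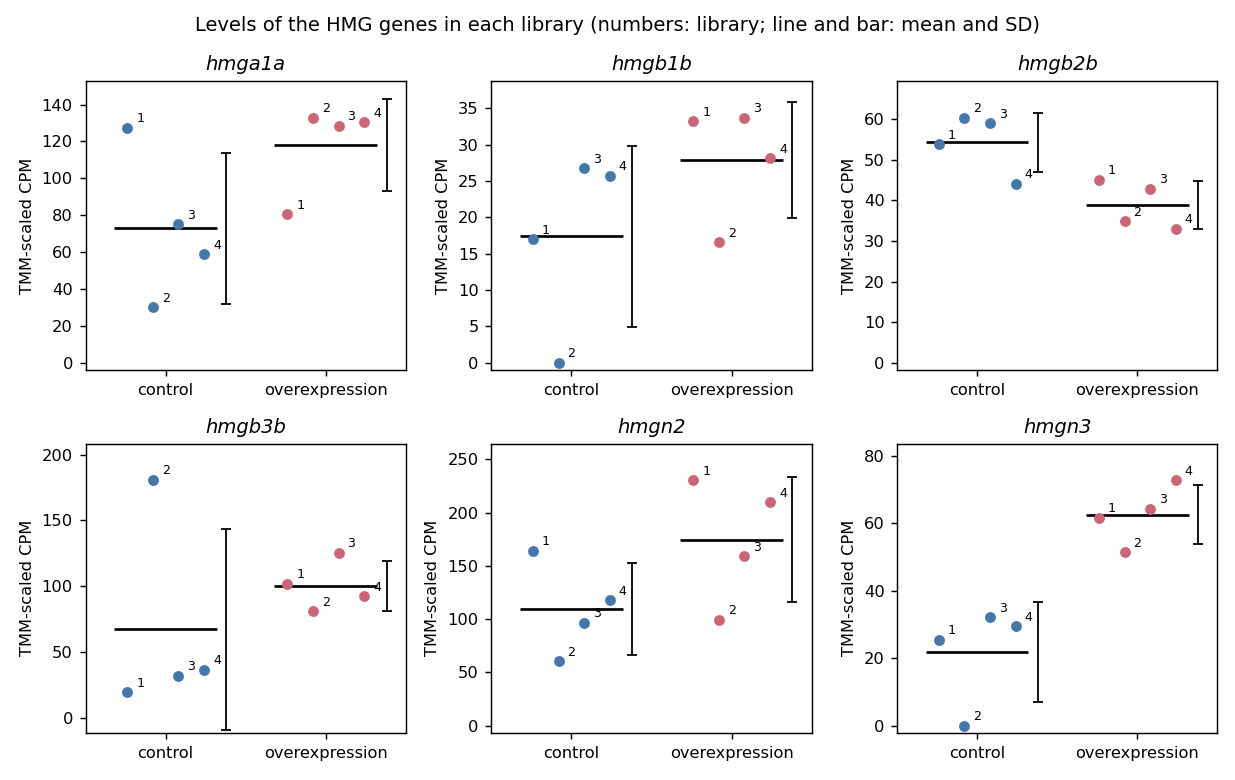
Level of 6 HMG genes in each library, in TMM-scaled CPM on linear axes that differ between panels. Points are the 4 control (blue) and 4 overexpression (red) libraries with their numbers, lines are group means and bars the SD. The hmgn3 points of the groups do not overlap, and control 2 stands far above the other controls for hmgb3b.

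Among the HMGB genes, hmgb3b was the one that passed. HMGB3 is a DNA-bending protein that in mammals is known from blood-forming stem and progenitor cells. Its level was 19.8, 181.02, 32.1 and 36.8 CPM in control libraries 1 to 4 and 102.03, 81.3, 125.6 and 92.5 CPM with overexpression. Every overexpression library lay above controls 1, 3 and 4 and below control 2. The log2 fold change was 1.42 ± 0.39 (SE; 95% interval 0.62 to 2.21; adjusted p = 0.00266, edgeR's quasi-likelihood test). Control 2, the smallest library, held 6 counts of hmgb3b, with an exact Poisson 95% interval of 66.4 to 394.0 CPM. That interval lies above the levels of the other 3 controls and overlaps the intervals of controls 3 and 4. Without control 2 the log2 fold change was 1.82 (adjusted p = 5.6e-05, edgeR). Without control 1, the lowest, it was 0.97 and no longer passed (adjusted p = 0.0575, edgeR). Scaled on the cardiomyocyte markers, with control 2 included, it was 0.01 (adjusted p = 0.975, edgeR). Per 1000 counts of the markers, controls 1, 3 and 4 were at 1.03, 1.46 and 1.59, below the 1.77 to 2.47 with overexpression. Control 2, with 6 counts, was at 6.71. The value of 0.01 thus does not show that hmgb3b follows the markers. The authors' deposited table, without control 2 and overexpression 1, gives 2.07 with an adjusted p of 3.4e-07. Of the 7998 genes listed there, 14.2% have an adjusted p under 0.05 with a positive fold change and 12.2% with a negative one.

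hmgb2b encodes an HMGB2 protein, which in mammals is most abundant in dividing and lymphoid cells. It was at 53.8, 60.3, 58.9 and 44.1 CPM in control libraries 1 to 4 and 45.1, 34.9, 42.9 and 33.05 CPM with overexpression. All 4 overexpression libraries lay below the control mean of 54.3 ± 7.33 CPM (SD, n = 4), and the groups overlapped only through overexpression 1 and control 4. The log2 fold change was -0.45 ± 0.35 (SE; 95% interval -1.16 to 0.26) and did not pass (adjusted p = 0.272, edgeR's quasi-likelihood test). Its spread was no larger than counting gives, with variances of 0.19 and 0.44 times that of counting in the 2 groups. Scaled on the cardiomyocyte markers it passed as lower (-1.84, adjusted p = 0.000195, edgeR), and with library totals alone it was at -0.08. The authors' deposited table gives -0.21 with an adjusted p of 0.867.

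The other 4 HMGB genes were too low for a test. hmgb1b, one of 2 copies of the gene for HMGB1, had 6.0, 0, 5.0 and 7.0 counts in controls and 14.0, 10.01, 11.01 and 17.0 with overexpression. In CPM these are 0 to 26.8 in controls and 16.6 to 33.7 with overexpression, and the groups overlapped. It entered the test in 6 alternatives, with log2 fold changes from 0.12 to 0.60 and adjusted p from 0.319 to 0.881 (edgeR). Its partner hmgb1a was at 0 in all 8 libraries, which allows a level of up to 1.07 CPM over the libraries together (3 counts, counting error only). hmgb2a had 2.0 counts in overexpression 1 and 0 elsewhere, and hmgb3a 1 count in control 3 and 0 elsewhere. In each of the 3 HMGB pairs nearly all counts thus fell on the b copy: the a copy reached at most 9.51% of its pair for hmgb2 and 14.3% for hmgb3 in any library. No pair's split differed between the groups (p = 1 for each of the 3, exact permutation test, two-sided, also adjusted over the pairs; n = 4 per group, 3 controls for hmgb1), and at these counts no difference was detectable. Copies with similar sequence can share reads, and how these were assigned is not stated.

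Of the HMGN genes, hmgn3 was the one that passed. HMGN3 is a nucleosome-binding protein first found in mammals as a partner of the thyroid hormone receptor. It was at 25.5, 0, 32.1 and 29.4 CPM in control libraries 1 to 4 and 61.7, 51.5, 64.3 and 72.7 CPM with overexpression. Every overexpression library lay above every control. The 0 of control 2 allows up to 90.5 CPM in that library (3 counts), so the separation rests on the other 3 controls. The log2 fold change was 1.20 ± 0.38 (SE; 95% interval 0.42 to 1.97; adjusted p = 0.00784, edgeR's quasi-likelihood test). It was 1.17 without control 2 (adjusted p = 0.0073, edgeR) and just missed the threshold without control 1 (1.08, adjusted p = 0.0506). With no filter on low counts it was 1.42 (adjusted p = 0.0117, edgeR). Scaled on the cardiomyocyte markers it was -0.19 (adjusted p = 0.699, edgeR). The authors' deposited table gives 1.44 with an adjusted p of 0.0024.

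hmgn2, a nucleosome-binding protein gene that is widely active in mammals, was at 164.2, 60.3, 96.4 and 117.7 CPM in controls 1 to 4. With overexpression it was at 230.2, 99.6, 159.2 and 209.9 CPM in libraries 1 to 4. Overexpression 2 and 3 lay within the range of the controls and overexpression 1 and 4 above it. The log2 fold change was 0.48 ± 0.27 (SE; 95% interval -0.08 to 1.03) and did not pass (adjusted p = 0.127, edgeR's quasi-likelihood test). It had the widest spread relative to counting with overexpression, a variance 10.5 times that of counting, against 2.16 times in controls. Without overexpression 2 it passed (0.74, adjusted p = 0.019, edgeR), as it did with library totals alone (0.84, 0.0274). Without any other single library it was 0.37 to 0.68 and did not pass (adjusted p from 0.0718 to 0.305, edgeR). Scaled on the cardiomyocyte markers it passed as lower (-0.89, adjusted p = 0.0362, edgeR). The authors' deposited table gives 0.58 with an adjusted p of 0.188. hmgn6 was at 0 in all 8 libraries, and hmgn7, another gene of this family in the table, was as well, which allows the same 1.07 CPM (counting error only).

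**Figure D2:**
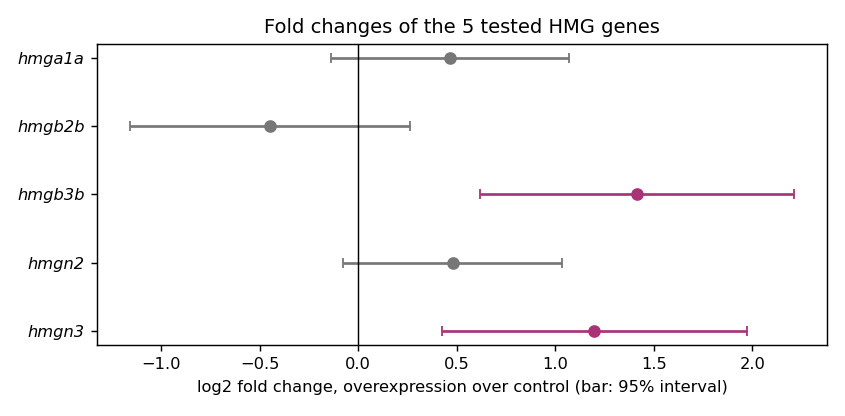
Log2 fold change of the 5 tested genes, overexpression over control, with 95% intervals from edgeR's quasi-likelihood test at TMM scaling. The intervals of hmgb3b (0.62 to 2.21) and hmgn3 (0.42 to 1.97) lie above 0 and those of hmga1a, hmgb2b and hmgn2 include it.

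The make-up of the HMG counts within each library does not depend on scaling. This comparison was added after the data were seen, and adjusted p-values are over its 5 genes. hmgb2b made up 13.2%, 18.2%, 18.03% and 14.1% of the counts of the 10 genes in controls 1 to 4 and 8.08%, 8.36%, 7.71% and 5.84% with overexpression. The groups did not overlap, and the difference was -8.37 percentage points (p = 0.0286, the smallest that this exact permutation test, two-sided over 70 assignments, can give; adjusted p = 0.0714; n = 4 per group). hmgn3 made up 6.23%, 0%, 9.83% and 9.40% in controls and 11.07%, 12.4%, 11.6% and 12.9% with overexpression, again without overlap (difference 5.61 points, p = 0.0286 and adjusted p = 0.0714 in the same exact test). Neither passed after adjustment. The share of hmga1a was 20.5% ± 9.22 in controls and 23.1% ± 7.03 with overexpression (SD, n = 4; p = 0.657, exact permutation test; adjusted p = 1), and that of hmgn2 was 31.4% ± 9.97 and 32.7% ± 7.78 (p = 0.857, adjusted p = 1). The share of hmgb3b was 4.84%, 54.6%, 9.83% and 11.8% in controls and 18.3%, 19.6%, 22.7% and 16.4% with overexpression. With all libraries its means did not differ beyond the spread (-0.99 points, p = 1, exact permutation test). Without control 2, which held 11.0 HMG counts in all, the difference was 10.4 points, and the shares of hmgb2b (-7.60 points), hmgb3b and hmgn3 (3.49 points) each had an adjusted p of 0.0476 in the exact permutation test. Each of these shares then had the smallest p that the test can give. Their adjusted p thus follows from how many of the 5 shares separated the groups. Without any other single library, adjusted p was 0.0714 to 0.143 for hmgb2b, 0.0714 to 0.214 for hmgn3 and 0.914 to 1 for hmgb3b in the same exact test. Shares of one total depend on each other, so a larger share of one gene lowers the others.

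**Figure D3:**
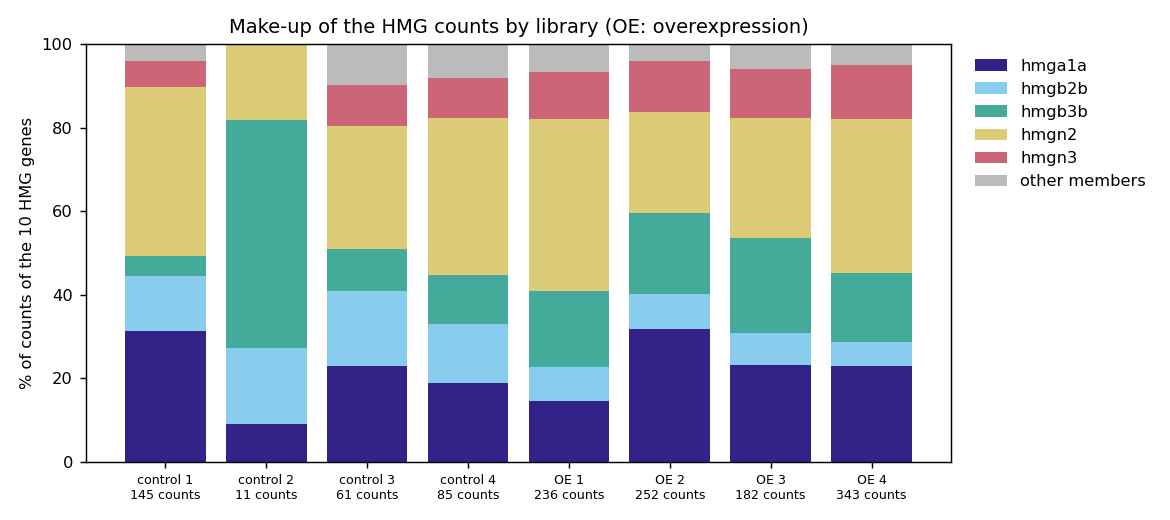
Share of each gene, in percent, in the summed counts of the 10 HMG genes per library, with the number of counts under each bar. hmgb2b (light blue) takes 13.2% to 18.2% in controls and 5.84% to 8.36% with overexpression. hmgb3b (green) takes 54.6% of the 11.0 counts of control 2.

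Set against the cardiomyocyte markers in place of all counts, the group means of hmga1a, hmgb2b, hmgb3b and hmgn2 were lower with overexpression than in controls. That of hmga1a was lower through control 1 and that of hmgb3b through control 2. Per 1000 counts of the markers there were 21.2, 12.3, 14.8 and 13.6 counts of the 10 genes in control libraries 1 to 4 and 12.3, 9.06, 10.9 and 12.6 with overexpression. As a share of all counts outside mitochondrial transcripts, the 10 genes tended the other way, with overlap. They took 0.0744%, 0.0687%, 0.0592% and 0.0550% in control libraries 1 to 4. With overexpression they took 0.0901%, 0.0687%, 0.0868% and 0.0925%. hmgb2b was at 2.79, 2.24, 2.67 and 1.91 per 1000 in controls and 0.99, 0.76, 0.84 and 0.73 with overexpression, without overlap. How many of all genes separate on this scale was not counted, so whether the separation is particular to hmgb2b was not tested. hmgn3 was at 0 to 1.46 in controls and 1.12 to 1.62 with overexpression, and the groups overlapped. hmgb3b was at 1.03, 6.71, 1.46 and 1.59 in control libraries 1 to 4 and at 1.77 to 2.47 with overexpression, so controls 1, 3 and 4 lay below every overexpression library and control 2, with 6 counts, above. hmga1a was at 3.42 ± 2.33 and 2.52 ± 0.52 per 1000 (SD, n = 4). hmgn2 was at 5.07 ± 2.63 and 3.76 ± 1.34 per 1000 (SD, n = 4). For both genes the groups overlapped, and the controls varied more than the overexpression libraries. These are descriptions of the same counts on another scale. Of the 5 genes, 3 passed as lower with this scaling and 0 as higher (edgeR, adjusted p under 0.05), beside 65.9% and 1.72% of all tested genes.

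**Figure D4:**
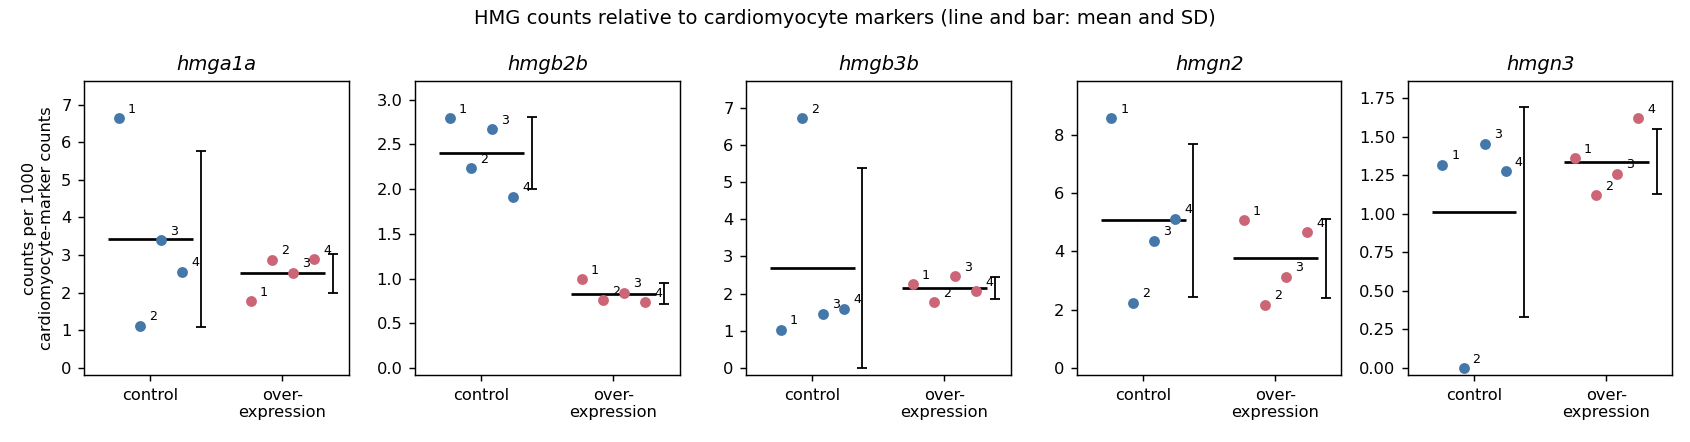
Counts of 5 HMG genes per 1000 counts of the cardiomyocyte markers in each library, on linear axes that differ between panels. Points are libraries with their numbers, lines are means and bars the SD. The groups separate for hmgb2b, at 1.91 to 2.79 in controls and 0.73 to 0.99 with overexpression, and overlap for the other 4 genes. How many of all genes separate on this scale was not counted. With edgeR's scaling on these markers, which adds a TMM factor among them, 65.9% of all tested genes passed as lower.

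Among other genes of chromatin architecture, none of those tested in 4 lists rose under the reported processing. Of the histone chaperone genes 1 rose with library totals alone, with no filter on low counts, with the authors' 6 libraries and without control 2. The numbers that fell in these lists stand beside the 29.2% of all tested genes that fell. Of 4 tested genes for other proteins with an HMG box, 2 fell and 0 rose, and their median was -1.63 on the log2 scale. The 2 were the transcription factor genes sox9b, from 89.8 ± 41.2 to 11.2 ± 2.61 CPM (-2.88 ± 0.44, adjusted p = 1.7e-06, edgeR), and sox7, a factor of blood vessels (-2.49 ± 0.71). The call of sox7 was lost with DESeq2 (adjusted p = 0.0885), which left 1 that fell. More genes were tested with no filter or with 1 library left out, so more of this list could enter. The number that fell was then 4 without control 2 (beside 852 of 2828 genes), control 3 (711 of 2724) or overexpression 3 (805 of 2782). It was 3 without overexpression 1, 2 or 4, and 5 with no filter on low counts (beside 1030 of 13443 genes). Of 3 tested genes for other AT-hook proteins, ash1l, a histone H3 methyltransferase, fell from 70.8 ± 9.20 to 21.7 ± 9.98 CPM (-1.68 ± 0.37, adjusted p = 0.000305, edgeR). Of this list 2 fell without control 2 and without each single overexpression library, where more genes were tested. kmt2a, a histone methyltransferase gene, did not pass (-0.83 ± 0.52). Of 4 tested genes for histone variants, h3f3d, for histone H3.3, fell (-0.71 ± 0.21, adjusted p = 0.0044, edgeR). This call was lost with library totals alone (-0.32, adjusted p = 0.274) and with spike-in scaling (-0.41, adjusted p = 0.378). It was also lost with no filter on low counts (-0.46, adjusted p = 0.198, edgeR) and with counts thinned to the smallest library (-0.88, adjusted p = 0.448, edgeR).

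Of 7 tested histone chaperones and related acidic nuclear proteins, 2 fell and 0 rose, with a median of -0.03. ptmab, a prothymosin alpha gene whose mammalian protein binds linker histone H1, fell from 667.8 ± 92.1 to 267.8 ± 78.4 CPM (-1.34 ± 0.19, adjusted p = 4.5e-07, edgeR). Its copy ptmaa fell by 0.48 on the log2 scale (± 0.19 SE, adjusted p = 0.0315, edgeR), a call lost in 14 alternatives, among them without control 2 (adjusted p = 0.0542), without control 3 (adjusted p = 0.303) and without each single overexpression library (adjusted p from 0.0742 to 0.105). Of the 2 tested genes of proliferation, tubb2b, a tubulin, fell (-0.91 ± 0.30, adjusted p = 0.0098, edgeR) and pcna, the sliding clamp of DNA replication, did not pass (-0.43 ± 0.31). Without control 4 tubb2b no longer passed (-0.79, adjusted p = 0.0584), nor with library totals alone (-0.53, adjusted p = 0.142). Its call was also lost with no filter on low counts (-0.68, adjusted p = 0.200, edgeR) and with spike-in scaling (-0.64, adjusted p = 0.266, edgeR). The linker histone genes h1f0 and h1m were too low to be tested. h1f0 was at 20.8 ± 6.83 CPM in controls (15.0 counts) and 12.4 ± 7.25 CPM with overexpression (27.0 counts). h1m was at 16.1 ± 16.1 CPM (15.0 counts) and 12.4 ± 7.29 CPM (26.0 counts). Of receptors and partners of extracellular HMGB1 in mammals, 0 of 9 in the table were tested. The most abundant were itgb2, the beta chain of leukocyte integrins (79.3 counts in controls and 28.0 with overexpression), and the chemokine gene cxcl12a (76.4 and 7.00). In CPM itgb2 was at 73.6 ± 51.4 in controls and 14.4 ± 7.23 with overexpression (SD, n = 4). cxcl12a was at 105.4 ± 123.6 and 3.60 ± 2.67 CPM, so its controls varied by more than their mean.

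The genes whose pattern over the 8 libraries was most like that of hmga1a were ipo7, a nuclear import receptor, pfdn4, a prefoldin subunit, si:ch211.105c13.3, sesn1 and strn3. Likeness was the root mean square difference of log2 CPM after centring each gene, which was 0.25 to 0.28 for these genes and had a median of 0.87 over 2496 genes. Their log2 fold changes ran from 0.27 (ipo7) to 0.70 (sesn1). Those most like hmgb3b were coa3a, an assembly factor of respiratory complex IV, sult2st1, zgc:153012 and the mitochondrial ribosomal protein genes mrps33 and mrpl24, with differences of 0.23 to 0.32 against a median of 1.196. Their log2 fold changes ran from 1.60 (mrpl24) to 1.91 (zgc:153012). The pattern of hmgb3b includes control 2, where it rests on 6 counts. Whether genes of mitochondrial proteins are more common among these than among all ranked genes was not tested.

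**Figure D5:**
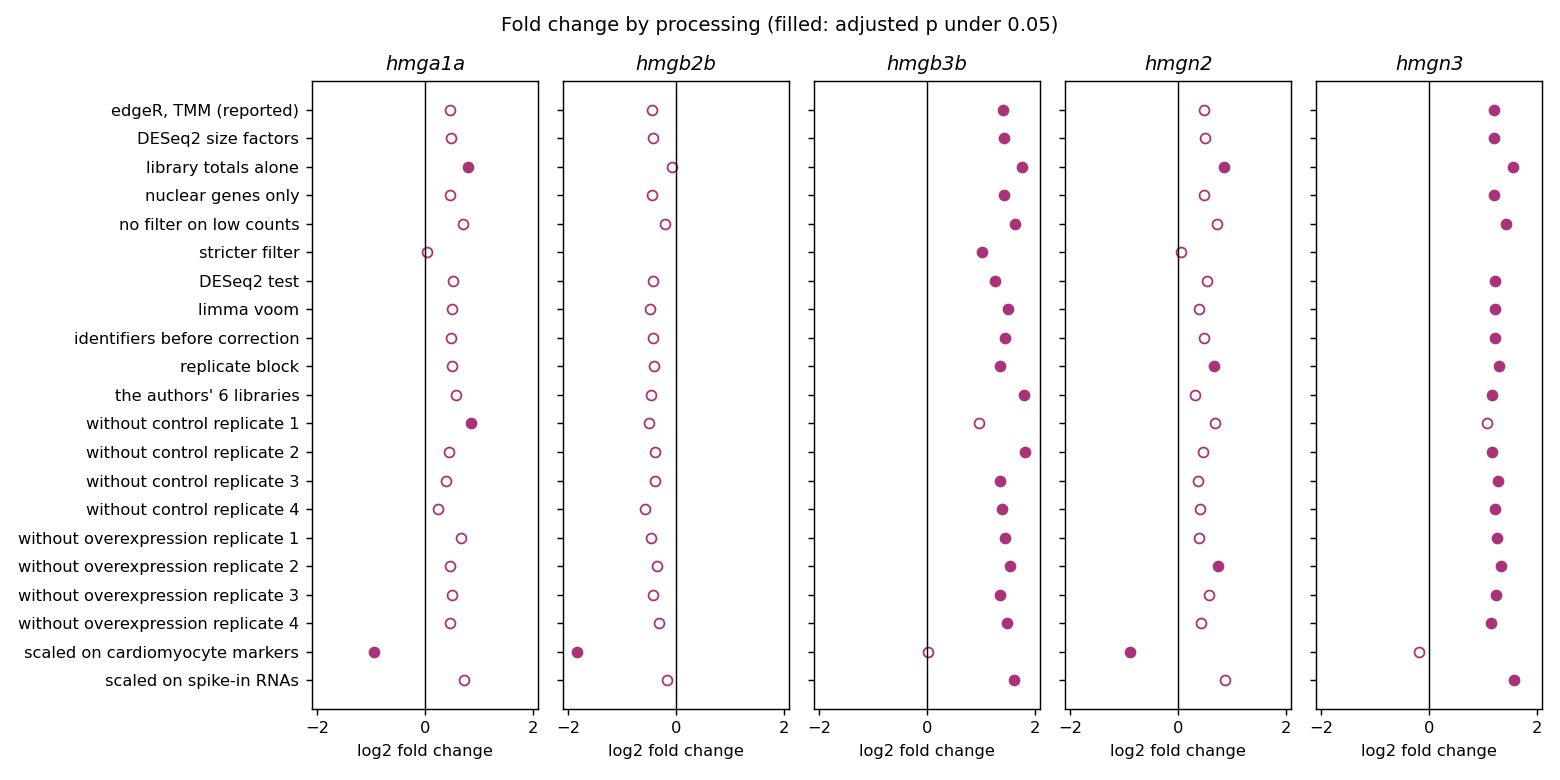
Log2 fold change of the 5 tested genes, one column each, under the reported processing and every alternative in which the gene was tested. Filled points have an adjusted p under 0.05. hmgb3b and hmgn3 are above 1 or close to it in all but the scaling on cardiomyocyte markers, where hmgb3b is at 0.01 and hmgn3 at -0.19.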

How the data were processed

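Per gene and library, the authors deposited estimated counts: unique molecular identifiers corrected for repeated use (read from the values: with 4096 possible identifiers, 100% of 62176 values turned back into whole numbers, tolerance 0.01). The submitters' processing notes name danRer11 as genome build and edgeR as a tool; the sources used here state no aligner, counting step or annotation. The authors' deposited edgeR table gives log2 fold changes, p-values and FDR per gene, per the file headers. Its count columns equal controls 1, 3 and 4 and overexpression libraries 2, 3 and 4. A further 12 columns of counts in subsets of that table were not used. Groups and numbers were taken from the sample titles.

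For the tests, counts were rounded, 67 spike-in entries were kept out of totals and tests, and 2501 genes passed filterByExpr (minimum count 10). They were tested in R 4.3.3 with edgeR 4.0.16 (TMM, robust glmQLFit, no covariate). Alternatives used DESeq2 1.42.0 and limma 3.58.1. Levels are CPM on TMM-scaled totals of the tested genes. The SE comes from the fold change and its F statistic. Shares of the HMG counts, the hmga1a share and scaling on markers or spike-ins were added after the data were seen. Scaling on markers in edgeR used their summed counts times a TMM factor computed among them. The members and gene lists were chosen with earlier results of these data known. Named genes are the 10 members, from each other list up to 4 genes past the threshold with the smallest p or the 2 most abundant, and the 5 genes most like hmga1a and the member with the smallest p. hmga1b, kmt2a, pcna and the marker genes at 0 were named after their values were seen. Gene positions and sequences are not analysed here.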

Additional observations from a re-analysis of the deposited data

Results flagged for a closer look

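Within each group of 4 libraries, a library was picked out when its gap to the nearest other, divided by the range of the group, exceeded Dixon's 95% critical value, which chance does in about 1 in 20 groups. Of 20 groups checked, 3 were picked out. Overexpression 1 had the lowest hmga1a level of its group, 80.7 CPM against 128.6 to 132.8 CPM. Control 2 had the highest hmgb3b level of the controls, 181.02 CPM, and the highest share of hmgb3b in the HMG counts, 54.6%. Both values rest on 6 counts in the library with the smallest total.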

How the results depend on the processing

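Of the 5 tested genes, hmgb3b kept its call in 18 of 20 alternatives and hmgn3 in 17 of 19. With scaling on cardiomyocyte markers, chosen after seeing the data, 43 genes were higher and 1648 lower, 0 members were higher and 3 lower, and hmga1a (-0.95), hmgn2 (-0.89) and hmgn3 (-0.19) changed direction. The stricter filter (minimum count 30) gave 328 higher and 368 lower genes of 1002 tested. Of 3 members tested 1 was higher, hmgb3b (1.02, adjusted p = 0.0203, edgeR). hmga1a was then at 0.03 and hmgn2 at 0.04, and hmgb2b and hmgn3 were not tested. Library totals alone gave 964 higher and 479 lower genes of 2501 tested, and 4 of 5 members higher. Spike-in scaling was also chosen after seeing the data and rested on 6 to 180.5 counts per library. It gave 723 higher and 404 lower genes of 2501, and 2 of 5 members higher. Thinned to the smallest library, 24 genes were higher, 54 lower and no member was tested. The cause of these changes was not tested.

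Leaving out each library in turn gave 629 to 861 higher and 671 to 852 lower genes of 2670 to 2828 tested. Of the 5 or 6 members tested, 1 to 3 were higher and 0 lower. The paralog shares differed by 0 points for hmgb1a, 0 to 3.17 for hmgb2a and -4.76 to 0 for hmgb3a. The family shares changed direction in some of these, hmga1a between -1.26 and 6.13 points (-1.26 without control 2 and -0.32 without overexpression 2), hmgn2 between -3.12 and 4.27 (-3.12 without control 2, -1.52 without overexpression 1 and -0.11 without overexpression 4) and hmgb3b between -6.13 and 10.4 (10.4 without control 2).

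No pairing by replicate number was seen: same-numbered libraries correlated at -0.06 to 0.01 in their deviations from group means. Libraries of different number correlated at -0.07 to 0.07, and 0 of 4 controls correlated best with their own number. Correlations this close to 0 cannot show whether libraries were collected or prepared in pairs. With the numbers as a replicate block, 696 genes were higher and 652 lower of 2501 tested. Of 5 members tested 3 were higher, hmgn2 among them (0.67, adjusted p = 0.0419, edgeR). Paired differences in the paralog shares were 0, 2.38 and -3.57 points for hmgb1a, hmgb2a and hmgb3a. hmgb1a, hmgb2a, hmgb3a and hmgn6 had 0 to 2 counts each. Whether depth or the counting of reads set these values was not tested.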
